A study of Arabidopsis thaliana with 4 samples.

Results

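Berberine bridge enzyme-like genes encode secreted oxidoreductases that carry a covalently bound flavin and pass electrons from their substrate to oxygen or another acceptor. The family is named after the poppy enzyme that closes the berberine bridge in alkaloid synthesis. In Arabidopsis its members are known for oxidising other substrates, among them oligogalacturonides and cellodextrins released from damaged cell walls, monolignols, and an indole intermediate of pathogen-induced defence compounds. Many family genes lie side by side in tandem groups.

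A set of 10 of these loci was described here, out of 27 family loci listed in all. Of the 10, 8 had a probe set paired with no other gene in the array annotation, against 13286 loci with such a probe set on the whole array. These 8 were AT1G26380, AT1G26390, AT1G26400, AT1G26410, AT1G26420, AT1G30700, AT4G20830 and AT4G20860, each with 1 such probe set; with several, the brightest would stand for the locus. The remaining 2, AT1G30720 and AT1G30730, shared 1 probe set, so its signal cannot be assigned to either. Measured values entered the choice: a locus was to be represented by a probe set chosen by brightness, and the set was drawn up with the comparison below already known. In that comparison AT1G26380 had the lowest fitted log2 change of the 7275 single-gene probe sets bright enough to be tested. Dimmer ones, such as that of the member AT1G26400 with a log2 change of -2.97, were not ranked. The values of this comparison are therefore a description of the chosen loci and no test of the choice.

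All samples were Arabidopsis thaliana seedlings of the genotype 35S::Dof3.2-GR, in which the constitutive 35S promoter drives a fusion of the transcription factor Dof3.2 to the steroid-binding part of the glucocorticoid receptor. Dexamethasone (DEX), a synthetic glucocorticoid, lets such fusions enter the nucleus. Seedlings grew at 22 °C, first for 4 days on kanamycin agar (50 µg/ml, with 1% sucrose) and next for 4 days in shaken liquid. Of 4 one-colour arrays, 2 came from mock seedlings and 2 from seedlings given 10 µM DEX for 3 h. The comparison asks how transcript levels differ after DEX in this line. Seedlings without the fusion were not analysed here; what DEX does by itself and what the fusion does cannot be told apart. Nothing in the labels ties replicates to separate cultures, so p-values reflect the spread among these arrays alone, and that spread may be technical.

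The arrays held 22810 probe sets with median signals of 190.6 to 193.3. Across the 13648 probe sets kept for testing, log2 signals correlated at r = 0.985 within mock, 0.992 within DEX and 0.982 to 0.986 between groups. The root gene PYK10, with signals of 13476 to 14584, and the leaf photosynthesis gene RCA, with 18696 to 23728, were bright on every array, as the label seedling implies. In whole seedlings, fewer cells of a type and less RNA per cell cannot be told apart. Signals are MAS5 values on a linear scale. Probe sets with a mean log2 signal under the 40th percentile, a signal of 110.6, are called dim below and were not tested.

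The tandem genes AT1G26380 to AT1G26420, 5 direct neighbours in the gene order, all had lower signals on both DEX arrays than on both mock arrays. So did 21.6% of all probe sets, and the loci were picked with this comparison known. AT1G26380 fell 2.82-fold and was the 1 member called in the fit, which it entered through its mock signals, since both DEX signals were under the filter level. The other 3 single-locus members, AT1G30700, AT4G20830 and AT4G20860, had overlapping groups and were not called. Of the 5 tandem genes, 4 were dim, and the lowest signals among them lay where replicate arrays differed most.

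AT1G26380 encodes an oxidase that acts in the synthesis of indole carbonyl nitriles, defence compounds made from tryptophan after pathogen attack. Its signal was 227.1 in mock replicate 1 and 167.2 in mock replicate 2, against 72.2 in DEX replicate 1 and 66.2 in DEX replicate 2. The groups did not overlap, and the lower mock value was 2.32 times the higher DEX value. The means were 197.2 ± 42.4 in mock and 69.2 ± 4.2 in DEX seedlings (SD, n = 2 each), a log2 change of -1.49 ± 0.21 (SE). Among the 13648 kept probe sets it had the second lowest log2 change. Both DEX signals lay under 110.6. With every signal under that level raised to it, the fall was 1.76-fold and AT1G26380 was no longer called. In that setting the log2 change of AT1G26390 was -0.30, and those of AT1G26400, AT1G26410 and AT1G26420 were 0, as all their signals lie under the level. It was also not called when all probe sets were tested without the filter, or without DEX replicate 2.

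AT1G26390, the next gene in the row, had signals of 129.4 and 143.2 in mock seedlings, against 92.2 and 80.2 after DEX. The groups did not overlap, and the mock mean of 136.3 ± 9.73 stood above the DEX mean of 86.2 ± 8.48 (SD, n = 2 each). The log2 change was -0.66, against log2 differences of 0.15 within mock and 0.20 within DEX. Of 2491 probe sets within 0.5 of its mean log2 signal, 10% differed by at least 0.60 between the mock arrays. Between the DEX arrays that bound was 0.51. Such bounds are for single arrays and the change is between means of 2, so the comparison does not decide whether it exceeds the replicate spread. With a mean signal of 108.2, AT1G26390 was just under the level of the filter and so not tested. When limma was run without the filter it did not pass (adjusted p = 0.491), and with the filter at the 20th percentile it did not either (adjusted p = 0.294).

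AT1G26420, at the far end of the row, had signals of 75.9 and 57.9 in mock seedlings, against 49.1 and 49.8 after DEX. The groups did not overlap, but the log2 change of -0.42 was close to the log2 difference of 0.39 between the mock arrays alone. It did not pass in limma without the filter (adjusted p = 0.797).

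The middle genes of the row were very dim. AT1G26400 had signals of 5.55 and 6.85 in mock seedlings, against 0.976 and 0.635 after DEX. AT1G26410 had signals of 16.9 and 12.7 in mock seedlings, against 8.27 and 3.38 after DEX. Neither gene had overlapping groups, and their log2 changes were -2.97 and -1.47. At this level replicate arrays differed widely. Of 815 probe sets within 0.5 of the mean log2 signal of AT1G26400, the median absolute log2 difference between the mock arrays was 1.19. Of these probe sets, 10% differed by at least 3.44. For AT1G26410 the same values over 1276 probe sets were 1.33 and 3.16. For AT1G26380, over 2558 probe sets, they were 0.23 and 0.59. The log2 changes of AT1G26400 and AT1G26410 were smaller than 3.44 and 3.16, but these bounds are for differences between single arrays. The changes are between means of 2 arrays, so the comparison does not decide whether they exceed the replicate spread. The log2 differences within mock and within DEX were 0.30 and 0.62 for AT1G26400, and 0.41 and 1.29 for AT1G26410. Neither dim gene passed in limma without the filter (adjusted p = 0.56 and 0.691).

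**Figure D1:**
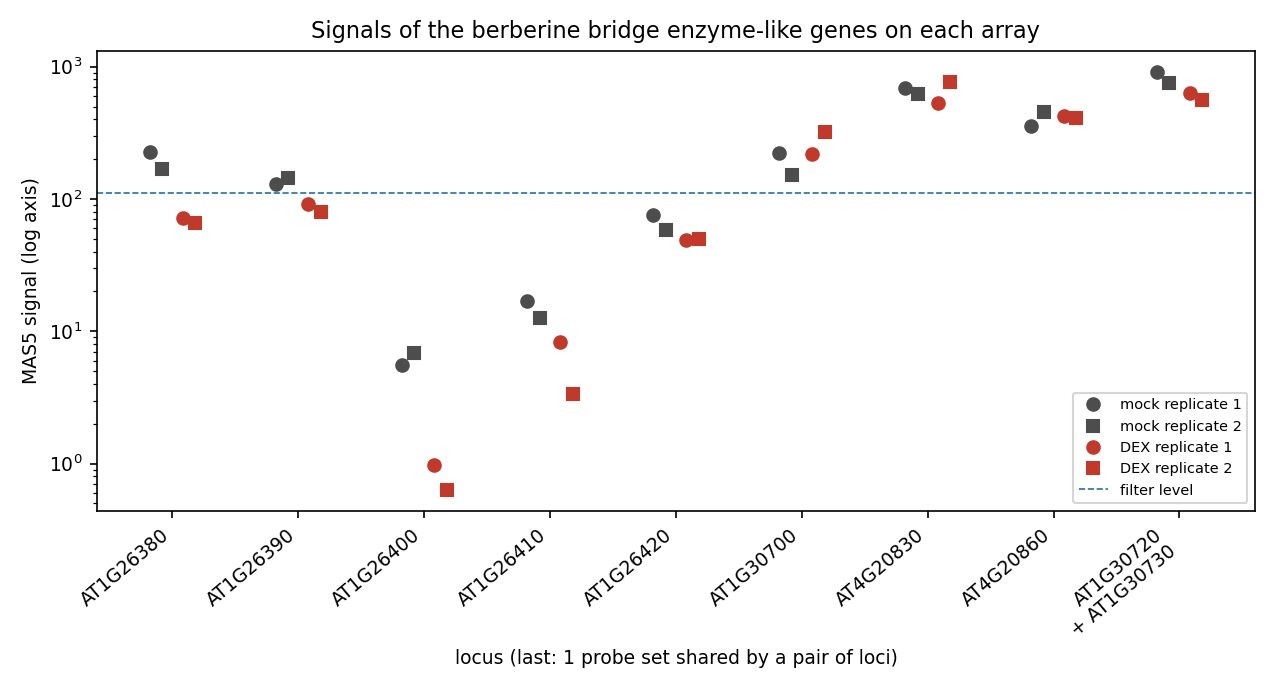
MAS5 signal (log axis) of each member on each of the 4 arrays, grey for mock and red for DEX, circles for replicate 1 and squares for replicate 2; the dashed line is the filter level of 110.6. In the tandem genes AT1G26380 to AT1G26420 both red symbols lie below both grey ones, and in AT1G30700, AT4G20830 and AT4G20860 they overlap.

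**Figure D2:**
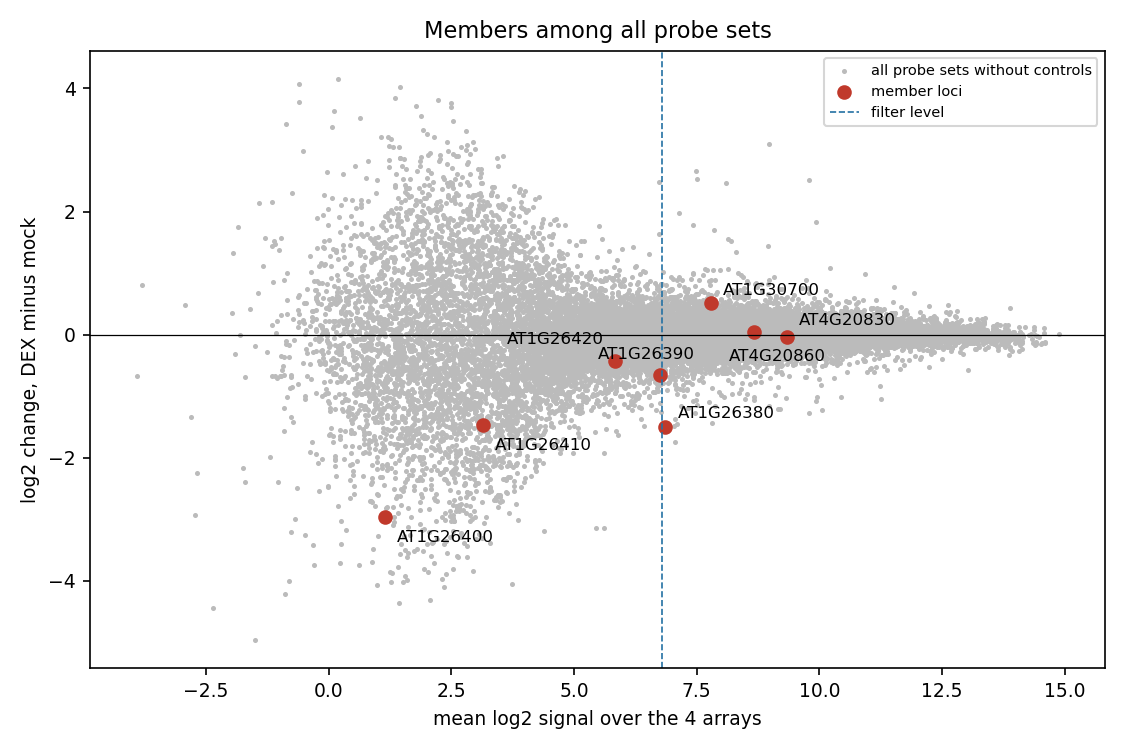
Log2 change (DEX minus mock) against the mean log2 signal over the 4 arrays, for all 22746 probe sets without controls (grey) and the 8 single-locus members (red). AT1G26380 lies at the lower edge of the grey cloud at its level, while AT1G26400 and AT1G26410 lie inside the wide cloud of dim probe sets.

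In limma with Benjamini-Hochberg adjustment at 0.05, 1 of the 4 kept members was called, lower in DEX, where 0.293% of all kept probe sets were called lower. That member, AT1G26380, was kept only through its mock signals. Without the filter 0 of the 8 members were called, where 25 of all 22746 probe sets were. In that limma fit 3 members had an unadjusted p under 0.05, a count given without the share over all probe sets. In the fit with the filter no member was called higher, again against 0.293%. Both DEX arrays lay below both mock arrays in 5 of the 8 members, against 21.6% of all probe sets, and above them in 0, against 16.6%. Since the loci were picked with this comparison known, nothing is read from these counts. The median log2 change was -0.54 over the 8 members, against -0.02 over all probe sets, and -0.0011 over the 4 kept members, against -0.0065 over all kept probe sets. The median over the 8 members lies within the range of the tandem genes, which are 5 of the 8. For 1 gene with 2 arrays against 2, the smallest two-sided p that an exact permutation test can give is 0.333.

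AT1G30700 lies in a second tandem group on the same chromosome. Its signal was 223.4 and 152.6 in mock seedlings, against 218.0 and 319.4 after DEX. The groups overlapped, since mock replicate 1 stood above DEX replicate 1. The log2 change was 0.52 ± 0.23 (SE), with a 95% interval of -0.00085 to 1.03 (limma, adjusted p = 0.54). Without mock replicate 1 the change was 0.79, with an adjusted p of 0.0506, and without DEX replicate 2 it was 0.24, so its size depended on single arrays. Over all alternatives that tested AT1G30700, its adjusted p in limma ran from 0.0506 to 1.00.

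AT1G30720 and AT1G30730 lie in the same group as AT1G30700. Their joint probe set had signals of 916.9 and 753.7 in mock seedlings, against 628.7 and 556.5 after DEX. The groups did not overlap, and the mock mean of 835.3 ± 115 exceeded the DEX mean of 592.6 ± 51.1 (SD, n = 2 each). The log2 change of -0.49 ± 0.14 (SE) did not pass (limma, adjusted p = 0.232), with a 95% interval of -0.80 to -0.19. It passed without mock replicate 2 (limma, adjusted p = 0.0154). The joint signal and that of AT1G30700 thus differed in the sign of their change, although the loci are close neighbours; this difference was not tested.

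AT4G20830 encodes an oxidase of oligogalacturonides, the pectin fragments that act as damage signals. Its signal was 690.9 and 619.7 in mock seedlings, against 530.0 and 764.6 after DEX. The DEX arrays enclosed both mock values, and the log2 change was -0.04 ± 0.17 (SE), with a 95% interval of -0.42 to 0.34 (limma, adjusted p = 0.976). A further probe set, paired with both AT4G20830 and its neighbour AT4G20840, another oligogalacturonide oxidase gene, had 165.5 and 146.1 in mock seedlings and, after DEX, 190.1 and 186.0. The change of this joint probe set was 0.27 ± 0.17 (SE) on the log2 scale and did not pass (limma, adjusted p = 0.682).

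AT4G20860 encodes an oxidase of cellodextrins, short glucose chains released from cellulose. Its signal was 356.3 and 456.0 in mock seedlings, against 420.7 and 406.8 after DEX. Both DEX values lay between the mock values, and the log2 change was 0.04 ± 0.15 (SE), with a 95% interval of -0.30 to 0.37 (limma, adjusted p = 0.975). For these wall fragment oxidases no change was called in limma. Changes inside the 95% intervals are compatible with the 4 arrays, and the intervals are no limit of detection.

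Among the other 17 family loci, 14 had a probe set of their own and 5 were bright enough to test. Of these, 0 were called in limma, against 0.586% of all kept probe sets. An unadjusted p under 0.05 in limma was reached by 1 gene, and the share of all probe sets reaching it is not given here. That gene was AT5G44380, with signals of 1837 and 1858 in mock seedlings, against 1210 and 1446 after DEX. Its groups did not overlap, and its log2 change was -0.48 ± 0.12 (SE; limma, adjusted p = 0.165). Without mock replicate 1 it passed (adjusted p = 0.0354, limma). AT5G44390, its neighbour, had a log2 change of -0.39 ± 0.18, AT2G34810 one of 0.30 ± 0.18 and AT5G44410 one of 0.26 ± 0.25 (SE).

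Among the 9 dim genes of these 14, some were lower and some higher after DEX, and others overlapped, such as AT4G20820 with a log2 change of -0.02. AT1G30760, which encodes a monolignol oxidase, had signals of 111.4 and 72.1 in mock seedlings, against 51.8 and 38.8 after DEX, with no overlap. AT5G44440 went the other way, with 37.7 and 20.4 in mock seedlings, against 76.6 and 86.5 after DEX. AT1G11770, another oligogalacturonide oxidase gene, had 3.77 and 6.87 in mock seedlings, against 14.0 and 15.3 after DEX. Its mean signal of 8.63 was near the 8.79 of AT1G26410, a level at which replicate arrays differed widely. These dim genes were not tested. Over all 22 family loci with their own probe set, the DEX arrays lay below the mock arrays in 9, above them in 4 and overlapped in 9, where 21.6% of all probe sets lay below and 16.6% above. Of the 9 below, 5 are the tandem genes, chosen with this comparison known, so nothing is read from the count.

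**Figure D3:**
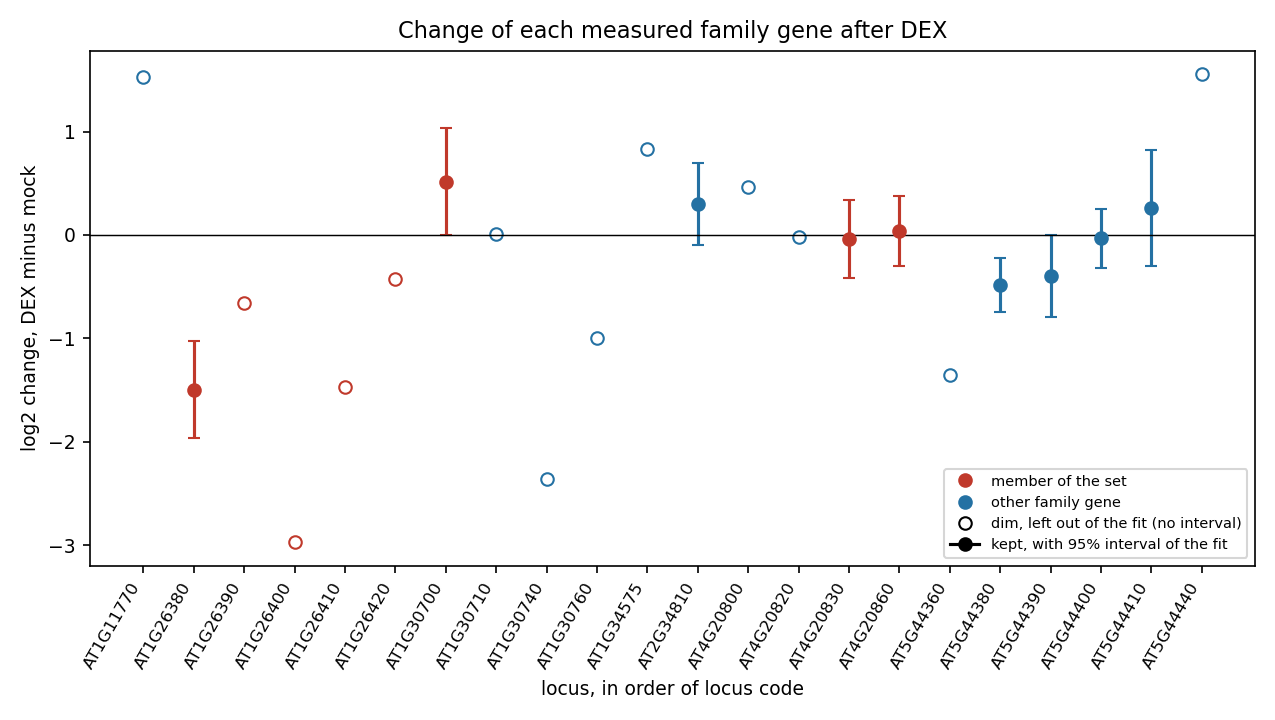
Log2 change (DEX minus mock) of the 22 family loci with their own probe set, in the order of their locus codes; red marks the members, blue the other family genes, filled symbols kept loci with the 95% interval of the fit and open symbols dim loci without one. AT1G26380 at -1.49 is the kept locus farthest from 0, and the open symbols spread from -2.97 to 1.55.

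Genes beside the tandem row were looked at after its values were seen. Among the 6 genes on each side, 5 had a probe set of their own and 2 were kept. Of these 2, 0 were called in limma, where 0.586% of all kept probe sets were, and 0 had an unadjusted p under 0.05. AT1G26450 had a log2 change of 0.35 ± 0.19 and AT1G26460 one of -0.05 ± 0.12 (SE). The DEX signals of AT1G26450, 190 and 178, were both above its mock signals, 125 and 165, while AT1G26460 overlapped. Of the 3 dim ones, AT1G26330 had lower signals on both DEX arrays, 84.1 and 78.0 against 97.0 and 102.8. The others, AT1G26350 with a log2 change of -1.12 and AT1G26500 with one of 0.20, overlapped. Of all probe sets, 21.6% lay below and 16.6% above without overlap.

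The annotation used left 8794 of the 22810 probe sets unlisted, and few genes of the pathways around the family could be paired with a probe set through it. In the list of indolic defence compound synthesis 0 of 16 genes were paired, and in that of oligogalacturonide and wall damage 0 of 8, so neither was analysed here. In the early immune list 3 of 17 were measured and 0 were called in limma, against 0.586% of all kept probe sets. An unadjusted p under 0.05 in limma was found for 1 gene, again without the share over all probe sets. That gene was WRKY53, a pathogen-responsive transcription factor gene, with 246.6 and 202.3 in mock seedlings, against 159.3 and 153.7 after DEX. Its groups did not overlap, and its log2 change was -0.51 ± 0.17 (SE; limma, adjusted p = 0.352). WRKY22, another such factor gene, and BIK1, a receptor-associated kinase gene of immune signalling, had changes of 0.06 ± 0.20 and -0.07 ± 0.16. In the monolignol list 1 of 18 was measured, HCT, an acyltransferase gene of lignin precursor synthesis, with a change of 0.05 ± 0.11 (SE).

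Markers of root and green tissue were counted beside these values, since a whole seedling holds both. In limma 0 of 3 measured root markers of 10 listed were called, and 0 of 4 measured green tissue markers of 9 listed. Of all kept probe sets 0.586% were called. At an unadjusted p under 0.05 in limma there were 1 root marker and 0 green tissue markers, without the share over all probe sets. PYK10 had a log2 change of 0.04 ± 0.10, the root hair genes EXPA7 and EXPA18 changes of -0.22 ± 0.20 and -0.43 ± 0.15 (SE). EXPA18 did not overlap between groups, with 426.6 and 517.8 in mock seedlings, against 368.4 and 329.9 after DEX; its part in the values of AT1G26380 was not tested. The green tissue genes LHCB4.2, RCA, PRK and PORB had changes of -0.08, -0.16, 0.09 and -0.23. PORB, a chlorophyll synthesis gene, also did not overlap, with 4303 and 4830 in mock seedlings, against 3700 and 4099 after DEX.

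The values of AT1G26380 over the 4 arrays were compared with those of 7274 other kept probe sets of 1 gene. Likeness was the root mean square difference of log2 signals, each centred on the gene's own mean, so that genes with a like fall were found by construction. The most alike was AT5G04960, a pectin methylesterase gene, at a distance of 0.22, against a median distance of 0.77. Next came AT4G26010, a class III peroxidase gene, at 0.22, AT5G60520 at 0.27 and the heavy-metal-associated domain gene AT3G07600 at 0.27. The fifth was UGT72E2, a monolignol glucosyltransferase gene, at 0.30. AT5G04960 had signals of 278.7 and 274.5 in mock seedlings, against 133.1 and 97.5 after DEX. AT4G26010 had 1325 and 1413 in mock seedlings, against 573.6 and 562.4 after DEX. In both genes the groups did not overlap, as the choice by likeness favours. Their mock arrays were closer to each other than those of AT1G26380. The ratio of DEX replicate 1 to DEX replicate 2 was 1.36 in AT5G04960 and 1.02 in AT4G26010, against 1.09 in AT1G26380. The dim family genes, among them the other 4 tandem genes, were not compared.

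**Figure D4:**
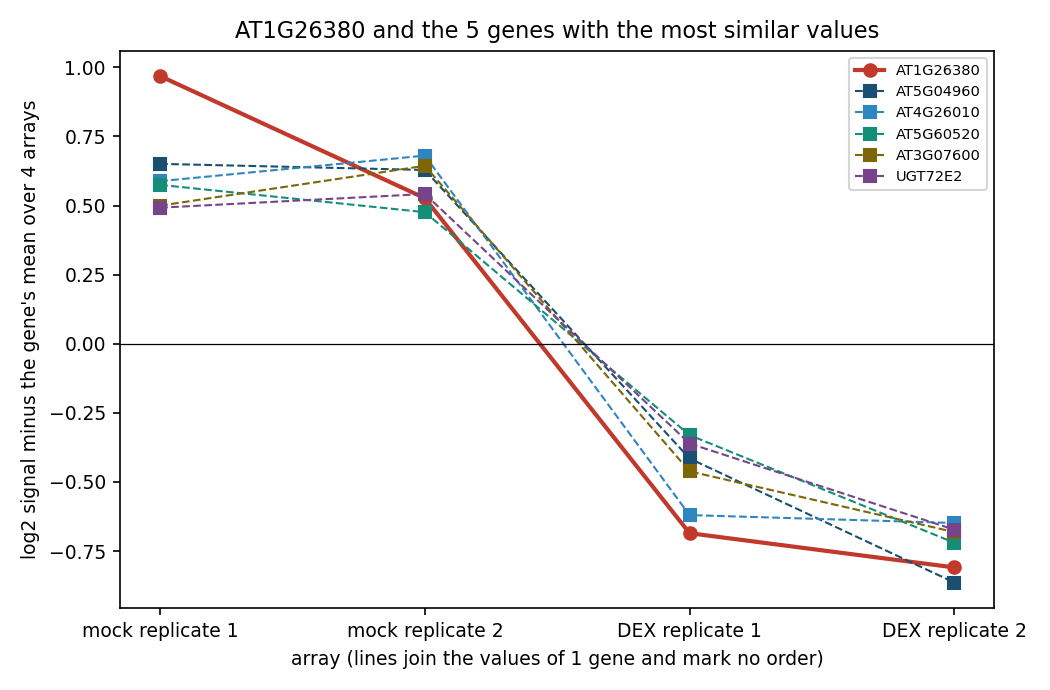
Log2 signal minus the gene's mean over the 4 arrays for AT1G26380 (solid red) and the 5 genes with the most similar values (dashed), by array; lines join the values of 1 gene and mark no order. AT1G26380 stands higher than the others on mock replicate 1, and all 6 genes are above 0 on the mock arrays and below 0 on the DEX arrays.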

How the data were processed

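Total RNA was labelled with biotin for 4 one-colour Affymetrix arrays, per the labels' protocols, with groups taken from the sample titles. The authors deposited linear intensities computed by MAS5 (per the submitters' processing notes); version and settings are not given in the sources used here. On each array the signals, trimmed by 2% at either end, had a mean of 500, so a change in total RNA cannot be seen. Detection calls were not used here, and the number of arrays limits the precision.

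Here 64 control probe sets were left out and log2 was taken without a pseudocount. For DEX against mock, limma 3.58.1 in R 4.3.3 was fitted over 13648 probe sets with a group term, a variance trend and Benjamini-Hochberg adjustment, two-sided, threshold 0.05. Of 9.74 degrees of freedom per test, 2 came from the arrays and the rest from other probe sets. Loci were matched through gene identifiers to RefSeq genes of assembly TAIR10.1 for 13436 of 22810 probe sets; the array's build is not named, so no coordinates are given. Promoter motifs and protein identity had been planned and were not analysed here. Members, lists and tests were chosen with earlier results of these data known. Named are all members, per list the measured genes with the lowest p (4 at most), and the 5 genes most like AT1G26380; further dim family genes and neighbours were chosen after their values were seen.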

Additional observations from a re-analysis of the deposited data

How the results depend on the processing

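The log2 change of AT1G26380 was below 0 in all 14 alternatives, from -1.72 to -0.82, and it was called in 10 of the 13 that tested it. The number of members called was 0 without the filter, with the filter at the 60th percentile, where AT1G26380 is not tested, and with signals under 110.6 raised to that level, an alternative chosen after seeing the data; without each array in turn it was 0 to 1. The number of probe sets called, 80, was 25 without the filter, 43 with the filter at the 60th percentile and 185 with the replicate block, and 25 to 496 without each array in turn (496 and 260 without mock replicate 1 and 2, 27 and 25 without DEX replicate 1 and 2). In such fits the lone array is assumed to vary like the other group. The labels do not say whether mock and DEX arrays of the same replicate number belong together. Replicate differences of the mock and the DEX arrays correlated at r = 0.109 across kept probe sets, which does not settle it. Genes called in the lists were 0, but 1 with the replicate block, AT5G44380 (adjusted p = 0.0463, limma), and 0 to 2 without each array in turn, AT5G44380 and EXPA18 without mock replicate 1. The median log2 change of the kept members was -0.54 without the filter, since 8 members then enter, and -0.12 to 0.12 without each array in turn. AT4G20830 ranged from -0.30 to 0.22 without each array in turn, above 0 without mock replicate 1 (0.04) and DEX replicate 1 (0.22), and AT4G20860 from -0.14 to 0.22, below 0 without mock replicate 1; the cause was not tested. With a pseudocount of 5.9 the changes of AT1G26400 and AT1G26410 were -0.85 and -0.84; that of AT1G26410 was -0.82 without DEX replicate 2, and that of AT1G26420 -0.23 without mock replicate 1. A mean over several probe sets of a locus was not run, since each member had 1. Groups of 2 arrays and signals near the background limit what can be seen in the 4 dim members.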
